A study of Mus musculus with 2 samples.

Results

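The 8 genes described here, Dbp, Tef, Hlf, Nfil3, Ciart, Bhlhe40, Bhlhe41 and Rora, encode transcription factors through which the circadian clock reaches other genes. They were taken by symbol from the 32285 genes in the count files of a single-nucleus RNA-sequencing study of mouse colon, and each symbol matched 1 gene. The study compared Pink1 knockout mice with wild-type littermates. Pink1 is the kinase that flags mitochondria with failing membrane potential, so that the ubiquitin ligase Parkin can tag them for autophagy. All animals were 15-week-old males on the C57BL/6 background, kept in a specific pathogen free facility on a regular light and dark cycle. The sources used here do not give the hour at which the colons were collected. Nuclei from 3 mice were pooled for each genotype after sorting on the DNA dye SYTOX Green, so each genotype is 1 library. The wild-type library was batch 1 and the knockout library batch 2, and genotype, library and batch cannot be told apart. No replicate stands behind any difference given below, no test was run between genotypes and there is no p-value.

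In the circadian clock, Clock and Arntl (Bmal1) form a dimer that activates genes carrying an E-box, among them the Per and Cry genes, whose proteins then repress the dimer. Dbp, Tef and Hlf are related bZIP activators that bind D-boxes, and Nfil3 (E4BP4) is a bZIP repressor that binds the same sites. Ciart (Chrono) and the bHLH proteins Bhlhe40 (DEC1) and Bhlhe41 (DEC2) repress the Clock and Arntl dimer or compete with it at E-boxes, and Rora activates genes such as Arntl through ROR elements, where the Rev-erb proteins Nr1d1 and Nr1d2 repress. Most cells of the body, those of the gut included, run such a clock. In the intestine Nfil3 is also known for its part in epithelial lipid uptake and in the formation of innate lymphoid cells.

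Promoters are shown for the members whose start sites carry one of the motifs searched, and for Dbp, whose level differed most between the libraries. They come from RefSeq on GRCm38.p6 and run from 250 bases before the annotated start to 50 bases after it, written 5′ to 3′ on the gene's own strand, with matches in capitals. The motifs searched on both strands were the E-box CACGTG, the D-boxes TTATGTAA and TTACGTAA, and the ROR element TAGGTCA. No motif searched overlaps another here. The E-box stood in 7.15% of 32851 such promoters, a D-box in 1.06% and the ROR element in 2.61%. Of the 8 members 7 had a promoter entry, Bhlhe40 being the exception. Ciart, on chromosome 3 (chr3:95882179-95882478, minus strand), carries 3 E-boxes. Tef has 2 annotated starts on chromosome 15, at chr15:81802423-81802722 and chr15:81811164-81811463 (plus strand), each with 1 E-box. Nfil3 (chr13:52980990-52981289, minus strand) carries 1 ROR element, read on the opposite strand. Bhlhe41 (chr6:145865371-145865670, minus strand) carries 1 E-box. Dbp (chr7:45704997-45705296, plus strand) holds none of these letters in this window.
Ciart: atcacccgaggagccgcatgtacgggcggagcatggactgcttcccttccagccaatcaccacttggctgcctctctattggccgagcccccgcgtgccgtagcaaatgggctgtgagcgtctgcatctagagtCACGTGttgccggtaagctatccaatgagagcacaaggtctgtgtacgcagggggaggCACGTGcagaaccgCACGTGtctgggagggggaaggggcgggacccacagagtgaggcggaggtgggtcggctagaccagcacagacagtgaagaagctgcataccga
Tef start 1: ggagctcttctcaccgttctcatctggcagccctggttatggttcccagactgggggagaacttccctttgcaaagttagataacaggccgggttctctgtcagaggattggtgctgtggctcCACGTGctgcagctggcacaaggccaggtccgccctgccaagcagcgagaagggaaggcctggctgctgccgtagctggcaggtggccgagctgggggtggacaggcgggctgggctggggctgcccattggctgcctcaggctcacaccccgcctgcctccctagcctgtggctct
Tef start 2: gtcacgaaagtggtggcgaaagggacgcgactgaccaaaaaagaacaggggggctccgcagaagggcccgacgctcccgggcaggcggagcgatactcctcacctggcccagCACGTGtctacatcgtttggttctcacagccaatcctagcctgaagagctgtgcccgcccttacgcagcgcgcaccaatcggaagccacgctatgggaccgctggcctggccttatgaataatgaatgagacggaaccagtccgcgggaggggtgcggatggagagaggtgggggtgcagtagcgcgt
Nfil3: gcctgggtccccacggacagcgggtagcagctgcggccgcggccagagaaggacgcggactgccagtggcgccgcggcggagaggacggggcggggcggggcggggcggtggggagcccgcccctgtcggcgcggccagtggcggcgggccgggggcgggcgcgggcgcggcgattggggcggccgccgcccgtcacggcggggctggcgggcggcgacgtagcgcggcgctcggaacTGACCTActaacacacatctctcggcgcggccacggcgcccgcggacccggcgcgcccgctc
Bhlhe41: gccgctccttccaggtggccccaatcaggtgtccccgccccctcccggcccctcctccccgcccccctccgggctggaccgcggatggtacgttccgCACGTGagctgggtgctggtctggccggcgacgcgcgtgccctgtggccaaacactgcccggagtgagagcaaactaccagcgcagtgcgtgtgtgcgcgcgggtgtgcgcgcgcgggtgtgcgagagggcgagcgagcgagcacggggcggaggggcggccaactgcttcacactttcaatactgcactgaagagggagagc
Dbp: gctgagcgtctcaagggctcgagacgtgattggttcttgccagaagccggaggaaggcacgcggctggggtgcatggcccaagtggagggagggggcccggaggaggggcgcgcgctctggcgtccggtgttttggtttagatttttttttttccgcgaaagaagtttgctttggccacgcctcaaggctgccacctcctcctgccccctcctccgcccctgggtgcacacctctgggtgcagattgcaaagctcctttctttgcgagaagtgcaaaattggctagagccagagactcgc

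The E-boxes begin 116, 58 and 44 bases before the Ciart start, 127 and 138 bases before the Tef starts and 153 bases before the Bhlhe41 start, and the Nfil3 element begins 12 bases before its start. The promoters of Hlf and Rora held no match to the motifs searched. The members' promoters are richer in G and C (60.3% to 81.7%) than the median of all promoters (52.7%). A match is a run of letters in these windows, and no binding was measured.

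The files hold 8924 wild-type and 12230 knockout barcodes with 16997995 and 22446326 UMIs, the unique molecular identifiers that count captured RNA molecules. After filtering, 8256 and 10966 nuclei were kept, with median UMI counts of 1626 and 1570. The libraries shared 28 barcode sequences, 22 of them among kept nuclei. Pink1 was counted 170 times in the wild-type and 113 times in the knockout library (11.3 against 6.1 CPM, counts per 1000000 UMIs of nuclear-encoded genes), a ratio of 0.541, so the knockout library is not empty of Pink1 tags. Whether the tags lie outside the altered part of the gene is not known from the files. Clustering gave 30 clusters, of which 24 could be named from marker genes, and each name is written as "-like". In 10 groups of nuclei both libraries held at least 100 nuclei: 6 named classes (crypt-base and proliferating, colonocyte, goblet, fibroblast, smooth muscle, macrophage and dendritic) and 4 unnamed clusters. Cluster 0 was led by Gsdmc3 and Gk, cluster 1 by Plet1 and Car8, cluster 6 by Fut9 and Nxpe4 and cluster 13 by Meg3 and Rian. The mitochondrial share of UMIs was 0.273% in the wild-type and 0.526% in the knockout library.

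Over all nuclei the members split by direction. Levels are given in CPM, and each range after a ratio is a 95% interval that covers counting error only. Dbp, Tef and Ciart were at least 1.5-fold lower in the knockout library, 3 of 8 members, where 8.17% of the 16564 genes with at least 20 counts were. Nfil3 and Bhlhe40 were at least 1.5-fold higher, 2 of 8 members, where 6.87% of all genes were. Hlf, Bhlhe41 and Rora lay between these limits. The median log2 ratio of the 8 members was -0.07, against -0.02 for all genes, since the directions opposed each other. In sums over nuclei, fewer nuclei that transcribe a gene and less RNA per nucleus cannot be told apart. Levels are compared within a gene and not between genes, because tags lie at the 3′ end and the counting of introns is not stated in the sources used here.

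**Figure D1:**
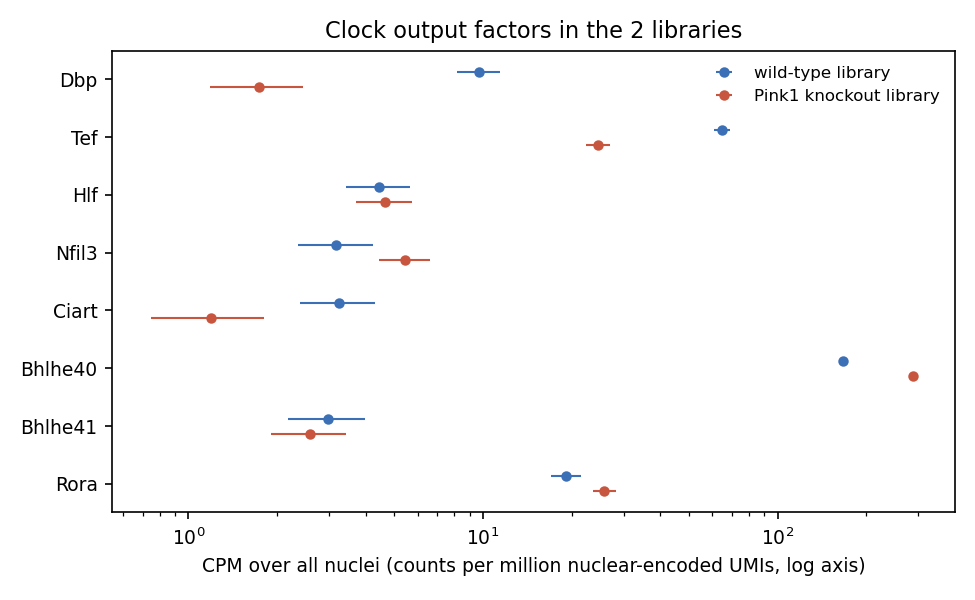
Level of each of the 8 members over all nuclei in CPM (log axis), with the wild-type library in blue and the knockout library in red and bars for the 95% counting interval. Dbp (9.68 against 1.73), Tef (64.9 against 24.5) and Ciart (3.25 against 1.19) sit lower in the knockout library, Bhlhe40 (167 against 288) and Nfil3 (3.18 against 5.45) higher, and genes are to be read each on its own.

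Dbp, a D-box activator named for a site in the albumin promoter, lies at chr7:45705088-45710203 on the plus strand (GENCODE M21, GRCm38; identifier ENSMUSG00000059824). It was counted 146 times in wild-type and 32 times in knockout nuclei. Its level was 9.68 CPM (8.18 to 11.4) in the wild-type and 1.73 CPM (1.18 to 2.44) in the knockout library. The knockout level was thus 0.178 of the wild-type level (0.118 to 0.263). Dbp shares 737 bases with Sphk2, a sphingosine kinase gene on the opposite strand, and reads there could be of either gene, because the sources used here do not say whether counting used strand. Sphk2 itself stood at 39.5 CPM in wild-type and 39.4 CPM in knockout nuclei.

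In the wild-type library Dbp was highest in colonocyte-like nuclei, the absorptive cells, among the named groups of at least 100 nuclei. Colonocyte-like nuclei had 59 wild-type counts (20.8 CPM, 15.8 to 26.8) and 6 knockout counts (1.48 CPM, 0.542 to 3.22). The wild-type interval overlapped that of the next of these groups, smooth muscle-like nuclei (3.62 to 26). The ratio was 0.0711 (0.0251 to 0.164). Within this class the counts were 24 and 4 in cluster 7, which was led by the bile acid transporter Slc10a2, and 30 and 0 in cluster 8, led by Slc37a2 and the peptide transporter Slc15a1. Set against a floor of 3 counts, the latter is 7.95-fold lower in the knockout library, and the interval of the ratio reaches up to 0.165. Cluster 3 had 3 and 1 counts (0.197, 0.00375 to 2.45) and cluster 15 had 2 and 1 (0.0966, 0.00164 to 1.86). The wild-type level was 3.12 CPM in cluster 3, against 33.6 in cluster 7 and 29 in cluster 8. Cluster 8 gave 494 of the 1477 wild-type and 414 of the 2340 knockout nuclei of the class. The part of this mix in the class ratio was not tested. Cluster 0 gave 28 wild-type counts and 1 knockout count, a ratio of 0.0322 (0.000788 to 0.195). The small unnamed cluster 17, with 94 and 146 nuclei outside the epithelium, had the highest wild-type level of any group. It had 10 counts against 1, at 55.6 and 4.43 CPM (0.0797, 0.00184 to 0.56). Its wild-type interval (26.6 to 102) overlapped that of the next group, enteric glia-like nuclei (4.34 to 61.6).

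In the other named classes Dbp rested on few counts, although its wild-type level over the named classes outside the epithelium (9.43 CPM) was close to that over the epithelial ones (10.2 CPM). Crypt-base and proliferating-like nuclei, the stem and cycling cells at the bottom of the glands, had 17 and 3 counts and a ratio of 0.153 (0.0287 to 0.528). Fibroblast-like nuclei had 6 wild-type counts and none in the knockout library, 3.45-fold lower against the floor, with an interval up to 0.493. Smooth muscle-like nuclei had 5 and 3, and macrophage and dendritic-like nuclei 1 and 4, so no direction can be read there. Goblet-like nuclei had 3 wild-type counts and 0 knockout counts. Over the named epithelial classes together the ratio was 0.11 (0.0527 to 0.207), and over the other named classes 0.425 (0.18 to 0.963). With every nucleus thinned to 500 UMIs, 19 and 4 colonocyte-like counts were left and the ratio there was 0.133. In crypt-base and proliferating-like nuclei thinning left 3 and 0 counts, which no longer set a direction (0.794 with the 0 taken as 3 counts).

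Tef, the related activator that binds as a dimer with itself or with Dbp, lies at chr15:81802421-81826863 on the plus strand (ENSMUSG00000022389). It was counted 978 times in the wild-type and 455 times in the knockout library. The levels were 64.9 CPM (60.9 to 69.1) and 24.5 CPM (22.3 to 26.9), and these intervals did not overlap. The ratio was 0.378 (0.338 to 0.423), and it was 0.371 when each group was given the same weight in both libraries.

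Tef was found in every group, and in all 10 groups with at least 100 nuclei per library its knockout level was the lower one. Among colonocyte-like nuclei it was counted 311 times in the wild-type (109.6 CPM) and 116 times in the knockout library (28.6 CPM), a ratio of 0.261 (0.209 to 0.324). The colonocyte-like clusters gave like ratios, 0.259 in cluster 3, 0.389 in cluster 7, 0.246 in cluster 8 and 0.221 in cluster 15, which held 54 wild-type and 350 knockout nuclei. Crypt-base and proliferating-like nuclei had 118 and 36 counts and a ratio of 0.264 (0.177 to 0.387). Unnamed clusters 0, 1 and 6 gave 0.209, 0.267 and 0.322, and cluster 13, with 19 and 11 counts, gave 0.614 (0.264 to 1.36).

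Among the named classes of at least 100 nuclei per library, the ratio was nearer to 1 outside the colonocyte-like and crypt-base and proliferating-like nuclei. Goblet-like nuclei, the mucus-secreting cells, had 42 and 22 counts, at 21.4 and 9.92 CPM, and a ratio of 0.464 (0.264 to 0.795). Fibroblast-like nuclei had 36 and 30 counts, at 62.4 and 30.2 CPM, and a ratio of 0.483 (0.288 to 0.807). Smooth muscle-like nuclei held the highest level among the named groups of at least 100 nuclei in both libraries, 149.5 CPM (116 to 189.9) and 76.5 CPM (58.1 to 98.9), with a ratio of 0.512 (0.354 to 0.739). In the knockout library this level's interval overlapped that of macrophage and dendritic-like nuclei (35.6 to 92.5). Macrophage and dendritic-like nuclei, with 20 and 19 counts, gave 0.686 (0.347 to 1.35), an interval that includes 1. Over the named epithelial classes together the ratio was 0.326 (0.275 to 0.384) and over the other named classes 0.539 (0.429 to 0.675). These intervals do not overlap, and the difference between the compartments has no replicate behind it.

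The order by Tef level among the named classes of at least 100 nuclei per library differed between the libraries. In the wild-type library smooth muscle-like nuclei were followed by colonocyte-like nuclei (109.6 CPM, 97.7 to 122), whose interval overlaps that of smooth muscle. In the knockout library colonocyte-like nuclei (28.6 CPM, 23.6 to 34.3) stood below macrophage and dendritic-like (59.2 CPM, 35.6 to 92.5) and smooth muscle-like nuclei, with intervals apart from both. Goblet-like nuclei were the lowest of these classes in both libraries. In the knockout library their interval (6.22 to 15) overlapped that of crypt-base and proliferating-like nuclei (7.88 to 15.6). In classes short of 100 nuclei in a library, the lymphatic endothelium-like (3 and 9 counts) and tuft-like nuclei (3 and 8) had more Tef in the knockout library, with intervals that include 1. Others of these small classes had less, with ratios of 0.26 (0.0574 to 0.972) in blood endothelium-like, 0.242 (0.00563 to 1.67) in B-like and 0.259 (0.0044 to 4.98) in plasma-like nuclei. Enteric glia-like (0.592, 0.291 to 1.18), enteroendocrine-like (0.744, 0.373 to 1.49) and T and innate lymphoid-like nuclei (0.975, 0.301 to 3.08) lay nearer to 1. Of the small unnamed clusters, cluster 17 gave 0.41 (0.214 to 0.758) and cluster 23 gave 1.13 (0.451 to 3.08). Thinned to 500 UMIs per nucleus, the Tef ratio was 0.299 (0.194 to 0.453) in colonocyte-like and 0.426 (0.211 to 0.824) in crypt-base and proliferating-like nuclei. It was 0.681 (0.234 to 1.92) in goblet-like nuclei, under the 1.5-fold limit. In fibroblast-like nuclei it was 0.663 (0.236 to 1.93) and in smooth muscle-like nuclei 0.666 (0.358 to 1.25). The intervals of these last classes, goblet-like included, include 1.

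**Figure D2:**
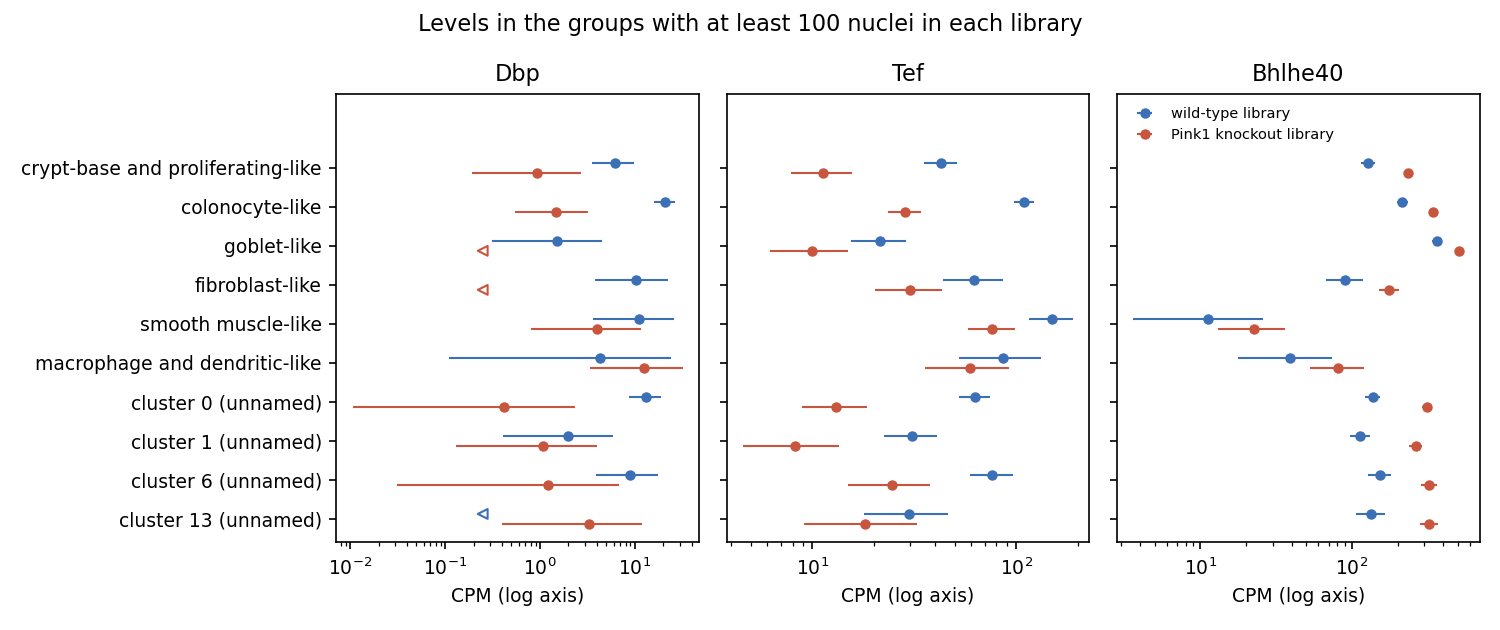
Levels of Dbp, Tef and Bhlhe40 in CPM (log axes that differ between panels) in the 10 groups with at least 100 nuclei in each library, as points with 95% counting intervals, and open triangles at a fixed place for a count of 0. Tef is lower in the knockout library in all 10 groups, and Bhlhe40 is higher in all 10.

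Hlf, the third activator of this family, lies at chr11:90336536-90390895 on the minus strand (ENSMUSG00000003949). It was counted 67 times in the wild-type and 86 times in the knockout library, at 4.44 CPM (3.44 to 5.64) and 4.64 CPM (3.71 to 5.73). The levels overlapped, with a ratio of 1.04 (0.75 to 1.46). Hlf was nearly confined to nuclei outside the epithelium. The named epithelial classes held 3 wild-type counts and 0 knockout counts, whereas the other named classes held 49 and 65.

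Smooth muscle-like nuclei had 25 and 33 Hlf counts, at 55.8 and 43.5 CPM, and a ratio of 0.781 (0.45 to 1.37). Fibroblast-like nuclei had 17 and 27, at 29.5 and 27.2 CPM, and a ratio of 0.921 (0.484 to 1.8). The highest Hlf level was in unnamed cluster 23, which carries fibroblast markers and is led by Gfpt2 and Pi16, with 7 and 11 counts at 112 and 106 CPM. Its interval overlapped that of the next group in both libraries. After thinning to 500 UMIs the fibroblast-like ratio rested on 11 and 10 counts and was 0.483 (0.184 to 1.25). Over all nuclei the Hlf interval lay apart from those of Dbp and Tef, whereas in smooth muscle-like nuclei the Tef interval (0.354 to 0.739) and the Hlf interval (0.45 to 1.37) overlapped.

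Nfil3, the repressor that binds the sites of the D-box activators, lies at chr13:52967209-52981073 on the minus strand (ENSMUSG00000056749). It was counted 48 times in the wild-type and 101 times in the knockout library, at 3.18 CPM (2.35 to 4.22) and 5.45 CPM (4.44 to 6.62). The ratio was 1.71 (1.2 to 2.47), opposite in direction to Dbp and Tef. Fibroblast-like nuclei held 2 wild-type and 23 knockout counts, at 3.47 and 23.1 CPM, a ratio of 6.67 (1.65 to 58.4). Of these, 18 knockout counts and no wild-type count fell in cluster 11, led by Dcn and Clec3b. This is 3.16-fold higher against the floor of 3 counts, with an interval from 2.32 up. Smooth muscle-like nuclei had 0 and 10 counts, 1.97-fold higher against the floor, with an interval from 1.33 up.

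In the epithelium Nfil3 was too thin to set a direction by class. Over the named epithelial classes together the ratio was 1.64 (0.937 to 2.95), and over the other named classes 2.5 (1.22 to 5.62). Colonocyte-like nuclei had 6 and 18 counts (2.1, 0.797 to 6.45), crypt-base and proliferating-like nuclei 8 and 14 (1.52, 0.593 to 4.17), and goblet-like nuclei 6 and 9. Unnamed cluster 0 went the other way with 6 and 3 counts. With doublets taken at Scrublet's own threshold the colonocyte-like ratio was 0.963, and with the stricter filter the crypt-base and proliferating-like ratio was 0.949. After thinning, 0 and 8 fibroblast-like counts were left, 1.42-fold higher against the floor. The interval of this ratio begins at 0.906 and so includes 1.

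Ciart, which represses the Clock and Arntl dimer, lies at chr3:95878503-95882251 on the minus strand (ENSMUSG00000038550). It was counted 49 times in the wild-type and 22 times in the knockout library, at 3.25 CPM (2.4 to 4.3) and 1.19 CPM (0.744 to 1.8). The ratio was 0.365 (0.21 to 0.615). All 3749 bases of the gene lie within C920021L13Rik on the opposite strand, so without stated strand use reads of one may count for the other. C920021L13Rik stood at 9.02 and 7.07 CPM.

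Of the 49 wild-type Ciart counts, 24 came from colonocyte-like nuclei. There the knockout library had 8, and the levels were 8.45 CPM (5.42 to 12.6) and 1.97 CPM (0.85 to 3.88), a ratio of 0.233 (0.0905 to 0.536). In colonocyte-like cluster 8 the counts were 14 and 0, 3.71-fold lower against the floor, with an interval up to 0.379. This is the cluster in which Dbp was 30 and 0. Crypt-base and proliferating-like nuclei had 10 and 2 counts, a ratio of 0.173 (0.0184 to 0.813). Macrophage and dendritic-like, fibroblast-like and smooth muscle-like nuclei each had at most 2 Ciart counts per library. Thinning to 500 UMIs left 13 and 12 counts over all nuclei, with a ratio of 0.696 (0.29 to 1.65), which is under the 1.5-fold limit, and 6 and 4 counts in colonocyte-like nuclei (0.422).

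**Figure D3:**
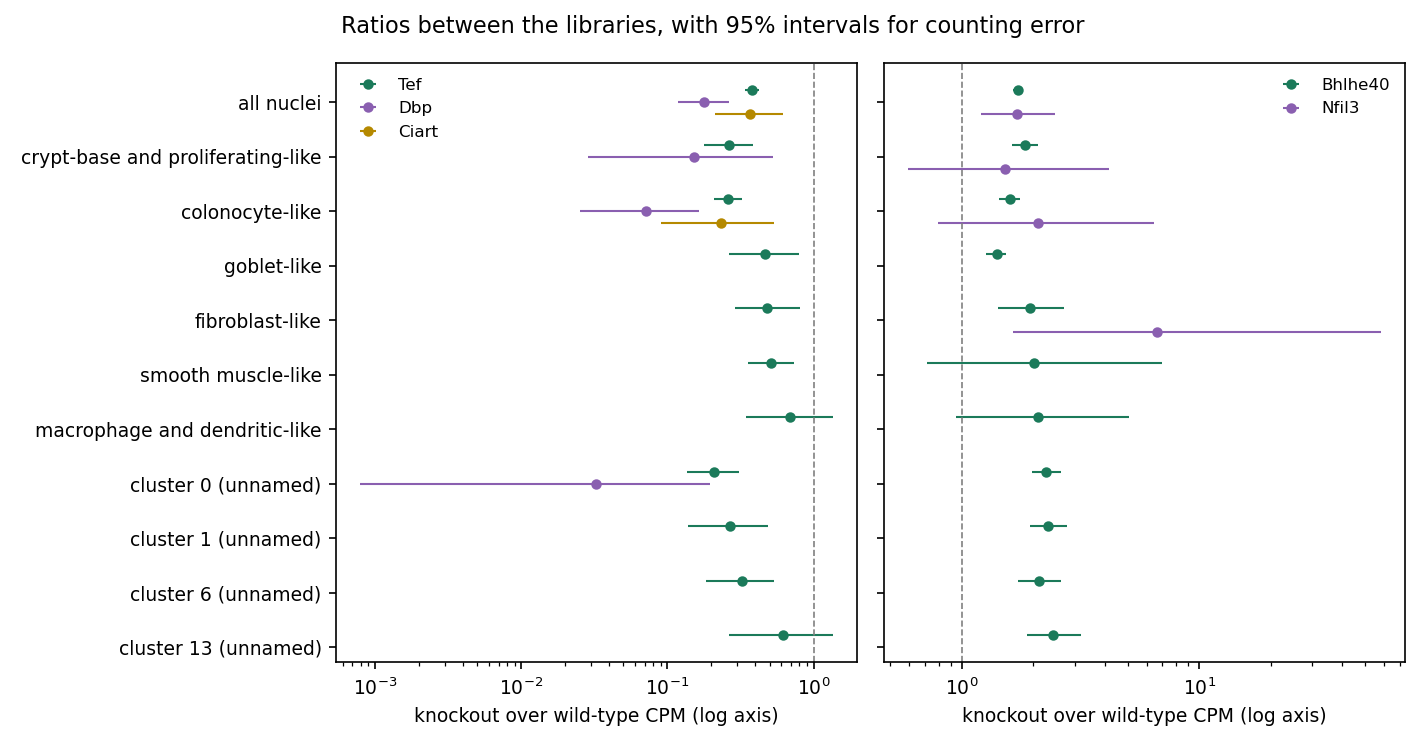
Ratio of the knockout to the wild-type level (log axis, dashed line at 1) with 95% counting intervals, for Tef, Dbp and Ciart on the left and Bhlhe40 and Nfil3 on the right, over all nuclei and in those of the 10 groups with at least 100 nuclei per library that hold at least 20 counts of the gene. The left-hand points plotted lie under 1, from 0.0322 for Dbp in cluster 0 to 0.686 for Tef in macrophage and dendritic-like nuclei, and the right-hand points plotted lie above 1, up to 6.67 for Nfil3 in fibroblast-like nuclei.

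Bhlhe40, a bHLH repressor that is also induced by hypoxia, cytokines and other stimuli, had the most counts of the 8. It lies at chr6:108660629-108666925 on the plus strand (ENSMUSG00000030103). It was counted 2524 times in the wild-type and 5339 times in the knockout library, at 167 CPM (161 to 174) and 288 CPM (280.4 to 296). The knockout library was the higher one, with a ratio of 1.72 (1.64 to 1.8). The ratio was 1.76 with equal group weights.

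Bhlhe40 was highest in goblet-like nuclei among the groups of at least 100 nuclei, with 716 counts and 365 CPM (338 to 392) in the wild-type and 1132 counts and 510.4 CPM (481 to 541) in the knockout library. The ratio there, 1.4 (1.27 to 1.54), was the nearest to 1 of the 10 groups and under the 1.5-fold limit. Colonocyte-like nuclei followed with 610 and 1386 counts, at 215 and 341 CPM and a ratio of 1.59 (1.44 to 1.75). Crypt-base and proliferating-like nuclei had 353 and 753 counts, at 127 and 235 CPM and a ratio of 1.85 (1.63 to 2.1). The unnamed clusters had the larger ratios, 2.27 (1.98 to 2.61) in cluster 0, 2.31 in cluster 1, 2.12 in cluster 6 and 2.43 (1.88 to 3.18) in cluster 13. The intervals of goblet-like nuclei and of these 4 clusters do not overlap.

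Among nuclei outside the epithelium, fibroblast-like nuclei had 52 and 174 Bhlhe40 counts, at 90.2 and 175 CPM, and a ratio of 1.94 (1.42 to 2.7). Macrophage and dendritic-like nuclei had 9 and 26 counts and a ratio of 2.09 (0.948 to 5.06). Smooth muscle-like nuclei held the lowest level of the 10 groups, with 5 and 17 counts at 11.2 and 22.4 CPM and a ratio of 2.01 (0.712 to 6.97). Both of these intervals include 1, and after thinning these ratios were 4.44 and 1.12 on 17 and 6 counts in all. Blood endothelium-like nuclei, with 72 and 163 nuclei, had 8 and 55 counts and a ratio of 3.58 (1.7 to 8.7). Not every small class had this direction: enteric glia-like nuclei had 7 and 4 counts, tuft-like nuclei 4 and 3 and enteroendocrine-like nuclei 14 and 16, with ratios of 0.465, 0.704 and 0.851 and intervals that include 1. Bhlhe40 shares 306 bases with 0610040F04Rik on the opposite strand, which had 16 and 30 counts.

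Bhlhe41, the paralog of Bhlhe40, lies at chr6:145858243-145865558 on the minus strand (ENSMUSG00000030256). It was counted 45 times in the wild-type and 48 times in the knockout library, at 2.98 CPM (2.18 to 3.99) and 2.59 CPM (1.91 to 3.43). The levels overlapped, with a ratio of 0.868 (0.565 to 1.33). Unlike Bhlhe40 it was nearly absent from the epithelium: the named epithelial classes held 6 counts in each library, and 9 of these 12 came from enteroendocrine-like nuclei.

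The highest Bhlhe41 level was in plasma-like nuclei, the antibody-secreting cells, with 9 counts in 36 wild-type nuclei (187 CPM, 85.7 to 356) and 7 counts in 85 knockout nuclei (75.6 CPM, 30.4 to 156). The intervals of the libraries overlap, and in each library the plasma-like interval overlapped that of the next group, unnamed cluster 23. Fibroblast-like nuclei had 12 and 10 counts, at 20.8 and 10.1 CPM, and a ratio of 0.483 (0.187 to 1.22). Macrophage and dendritic-like nuclei had 4 and 8 counts. After thinning, 11 and 22 counts were left over all nuclei and the ratio was 1.51 (0.701 to 3.44), on the other side of 1, so these counts set no direction for Bhlhe41.

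Rora, the nuclear receptor that activates through ROR elements, spans 734461 bases at chr9:68653786-69388246 on the plus strand (ENSMUSG00000032238). It was counted 289 times in the wild-type and 479 times in the knockout library, at 19.2 CPM (17 to 21.5) and 25.8 CPM (23.6 to 28.3). The ratio was 1.35 (1.16 to 1.57). With equal group weights in both libraries it was 1.11, and the knockout library held a larger share of fibroblast-like nuclei, 682 of 10966 against 362 of 8256.

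Within fibroblast-like nuclei Rora was counted 122 and 223 times, at 212 CPM (176 to 253) and 224 CPM (196 to 256), and the ratio was 1.06 (0.846 to 1.33). Smooth muscle-like nuclei had 31 and 63 counts, at 69.2 and 83.1 CPM, and a ratio of 1.2 (0.77 to 1.91). The highest level was in unnamed cluster 23, with 27 and 33 counts at 432 and 319 CPM. In the wild-type library this interval (285 to 629) stood apart from that of fibroblast-like nuclei, and in the knockout library (219.7 to 448) it did not. T and innate lymphoid-like nuclei, where Rora is known as a factor of type 2 innate lymphoid cells, had 8 and 18 counts, at 95.1 and 238 CPM, and a ratio of 2.51 (1.04 to 6.66). Crypt-base and proliferating-like nuclei had 7 and 17 counts, at 2.53 and 5.31 CPM, with a ratio of 2.1 (0.829 to 6), which became 4.47 when a free RNA share of 10% was subtracted. Colonocyte-like nuclei had 4 and 6 counts.

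**Figure D4:**
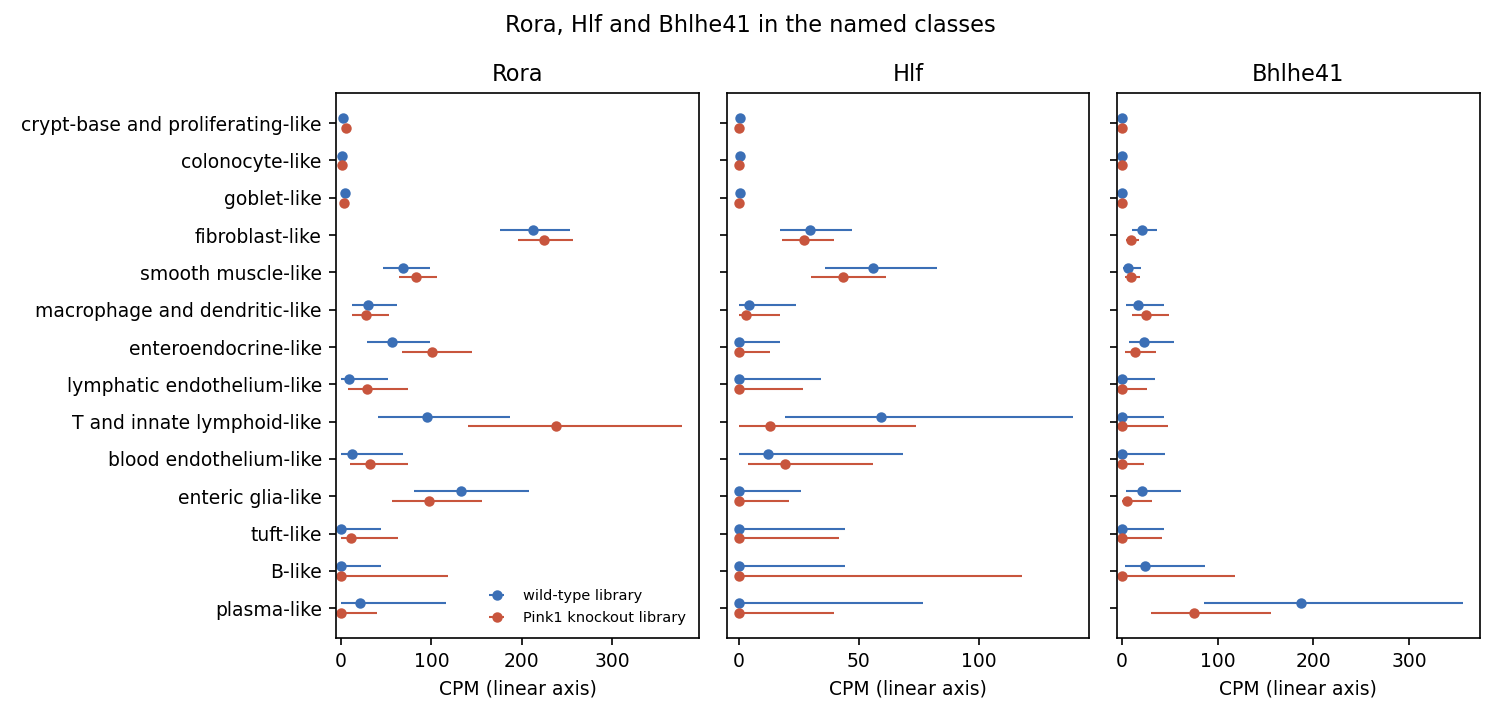
Levels of Rora, Hlf and Bhlhe41 in the named classes in CPM (linear axes that differ between panels), wild-type in blue and knockout in red, with 95% counting intervals. Rora and Hlf stand near 0 in the crypt-base, colonocyte and goblet-like classes and higher in fibroblast-like (Rora 212 and 224) and smooth muscle-like nuclei (Hlf 55.8 and 43.5), and Bhlhe41 peaks in plasma-like nuclei (187 and 75.6).

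By class, only members with at least 20 counts in the class are counted, and members that passed this limit through their higher library alone are among them. In colonocyte-like nuclei 5 members passed, 3 of them at least 1.5-fold lower (Dbp, Tef, Ciart) and 2 higher (Nfil3, Bhlhe40), where 11.1% of genes were lower and 6.75% higher. The Nfil3 intervals include 1 in colonocyte-like and in crypt-base and proliferating-like nuclei, as do those of Rora in the latter, of Bhlhe41 in fibroblast-like and of Bhlhe40 in smooth muscle-like and in macrophage and dendritic-like nuclei. In crypt-base and proliferating-like nuclei 5 passed, 2 lower (Dbp, Tef) and 3 higher (Nfil3, Bhlhe40, Rora), against 7.68% and 5.46% of genes. Goblet-like nuclei had 2, with Tef lower and none higher, against 12.3% and 6.61%. Of 6 in fibroblast-like nuclei, Tef and Bhlhe41 were lower and Nfil3 and Bhlhe40 higher, against 10.8% and 11.8%. Of 4 in smooth muscle-like nuclei, Tef was lower and Bhlhe40 higher, against 11.1% and 13.6%. Macrophage and dendritic-like nuclei had 2, none lower and Bhlhe40 higher, against 14.9% and 15.7%.

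The core clock genes that drive or oppose these outputs were read from a list of 17, all with at least 20 counts over all nuclei. Of these, 4 were at least 1.5-fold lower in the knockout library (Per3, Nr1d1, Nr1d2, Rorb) and 2 higher (Per1, Cry1), beside 8.17% and 6.87% of all genes, with a median log2 ratio of 0.02. Nr1d1, which encodes a repressor acting at ROR elements, was counted 664 and 333 times, at 44 and 18 CPM, a ratio of 0.408 (0.356 to 0.466). Its paralog Nr1d2 was counted 2372 and 1479 times, a ratio of 0.507 (0.475 to 0.541). Per3 stood at 167 and 109 CPM (0.653, 0.615 to 0.692). These 3 went the way of Dbp and Tef.

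Per1, by contrast, was counted 254 and 845 times, at 16.8 and 45.6 CPM, a ratio of 2.71 (2.35 to 3.13). Cry1 stood at 11.2 and 17.3 CPM (1.54, 1.27 to 1.87), and Arntl at 74.1 and 104 CPM (1.41, 1.31 to 1.52), short of the 1.5-fold limit. Clock stood at 535 and 545 CPM (1.02, 0.99 to 1.05). Rorb rests on 54 and 44 counts with an interval that includes 1 (0.435 to 1.01), and the count of genes lower is 3 with median-ratio scaling, with the stricter filter and with Scrublet's own threshold. Per2 was at 1.07 (0.949 to 1.22) over all nuclei, at 0.633 (0.448 to 0.893) in colonocyte-like nuclei and at 1.93 (0.895 to 4.63) in fibroblast-like nuclei.

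The same genes were read by class beside the members. In colonocyte-like nuclei 14 of the 17 were measured, with 5 lower (Per2, Per3, Cry2, Nr1d1, Nr1d2), 2 higher (Per1, Cry1) and a median log2 ratio of -0.15, beside 11.1% and 6.75% of genes. Nr1d1 was at 0.302 (0.232 to 0.389) there and Per3 at 0.356 (0.298 to 0.424). Fibroblast-like nuclei had 13, with 3 lower (Per3, Nr1d1, Nr1d2) and 3 higher (Arntl, Per1, Per2), beside 10.8% and 11.8% of genes, and Per1 was at 4.82 (3.09 to 7.89). Smooth muscle-like nuclei had 12, with 3 lower (Per3, Nr1d1, Nr1d2) and 3 higher (Arntl, Npas2, Per1), beside 11.1% and 13.6%. Nr1d2 was at least 1.5-fold lower in each of the 6 named classes, and in goblet-like nuclei, where Tef alone of the members was lower, it was at 0.445 (0.345 to 0.57).

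**Figure D5:**
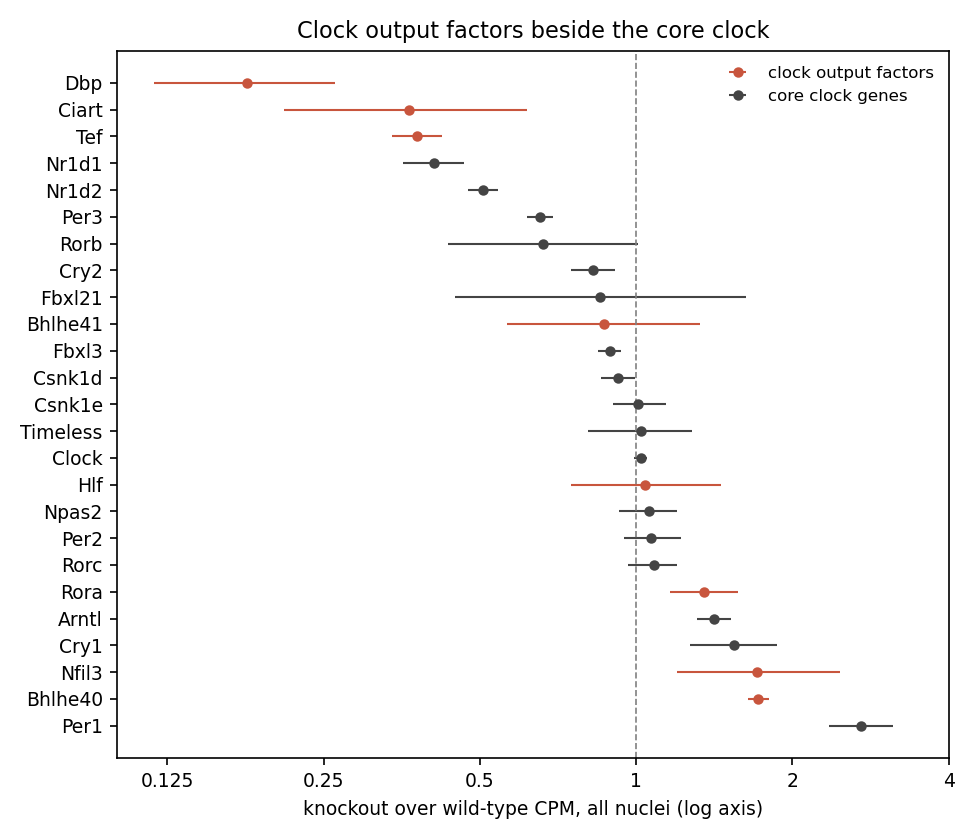
Ratio of the knockout to the wild-type level over all nuclei (log axis, dashed line at 1) with 95% counting intervals, for the 8 members in red and the 17 core clock genes in grey, ordered by ratio. Dbp (0.178), Ciart (0.365), Tef (0.378), Nr1d1 (0.408) and Nr1d2 (0.507) are the lowest, and Per1 (2.71) and Bhlhe40 (1.72) the highest.

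Other values moved with the libraries as well. Immediate early genes, which respond within minutes to stimuli and to tissue handling, were higher in the knockout library: 20 of the 21 listed were at least 1.5-fold higher, 0 lower, beside 6.87% and 8.17% of all genes, with a median log2 ratio of 1.58. Egr1 was at 36.5 and 979 CPM, a ratio of 26.8 (24.6 to 29.2), and Fos at 60.6 and 486 CPM, a ratio of 8.01 (7.49 to 8.59). By class, those higher were 14 of 19 measured in colonocyte-like (6.75% of all genes) and 13 of 18 in crypt-base and proliferating-like nuclei (5.46%). Goblet-like nuclei had 18 of 19 (6.61%), fibroblast-like 19 of 20 (11.8%), macrophage and dendritic-like 12 of 14 (15.7%) and smooth muscle-like 17 of 18 (13.6%). Nr4a2 was lower in colonocyte-like and Jun in macrophage and dendritic-like nuclei, with intervals that include 1, where 11.1% and 14.9% of all genes were lower. The median log2 ratio of the list ran from 0.89 in colonocyte-like to 2.83 in smooth muscle-like nuclei. The mitochondrial share of UMIs was 0.435% and 0.738% in colonocyte-like nuclei, 0.456% and 1.39% in cluster 0 and 0.245% and 0.16% in smooth muscle-like nuclei. The part of either in the members' values was not tested.

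Of 12 other clock-controlled genes, 5 were at least 1.5-fold higher over all nuclei in the knockout library and none lower. Of all genes 6.87% were higher and 8.17% lower. The direction was unlike that of Dbp and Tef, with a median log2 ratio of 0.35. The higher ones were Usp2, a deubiquitinase (1.7, 1.4 to 2.06), the zinc finger factors Klf9 (1.9) and Klf10 (2.93), the glucocorticoid-induced Tsc22d3 (2.57, 2.27 to 2.93) and Pdk4, a kinase that holds back pyruvate oxidation (2.41, 1.87 to 3.13). Klf9, Tsc22d3 and Pdk4 are also known as targets of the glucocorticoid receptor. Wee1, a cell cycle kinase, was at 1.06 (0.872 to 1.29) and Nampt, an enzyme of NAD synthesis, at 1.09 (0.981 to 1.22). By class, Tsc22d3 was at 1.02 in colonocyte-like, 1.2 in crypt-base and proliferating-like and 0.721 in goblet-like nuclei, with intervals that include 1. It was at 4.66 in fibroblast-like, 3.89 in macrophage and dendritic-like and 8.08 in smooth muscle-like nuclei. In goblet-like nuclei 2 of 10 measured were lower (Wee1, Pdxk) and 2 higher, beside 12.3% and 6.61% of genes.

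For the members with at least 200 counts, the genes most like them in level were found over 20 points, the 10 groups in each library, among 8229 genes. Tef was nearest to Sun2 (Pearson's r of log2 CPM 0.81), Ubr4 (0.79) and Vps29 (0.78). Bhlhe40 was nearest to Mapk3 (0.94), Trip12 (0.91) and Spred2 (0.91), and Rora to Lsp1, Dlc1 and Adamdec1 (0.97 each). The points share 2 libraries, so these values describe these data and carry no p-value.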

How the data were processed

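The authors deposited UMI counts for every gene and barcode. Per the file headers the counting tool was Cell Ranger 6.1.2, and per the submitters' processing notes the build was GRCm38 (mm10). The sources used here do not say whether introns or strand entered the counting. The smallest barcode total was 500 UMIs in both libraries. The members and gene lists were chosen with earlier results of these data known.

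Barcodes with at least 500 UMIs, 300 genes and at most 10% mitochondrial UMIs were kept (8888 wild-type, 12146 knockout). The highest Scrublet scores, at 0.8% per 1000 barcodes, were removed as doublets (7.11% and 9.72%). Scanpy 1.11.5 scaled counts to 10000, took 2000 variable genes without the members and 30 principal components, and Leiden clustering ran jointly on 20 neighbours at resolution 1. A cluster took the class whose markers had the highest mean log2 fold (5 CPM added) if this was at least 0.3 with 3 markers 2-fold up. Rebuilt names may differ from the study's. Naming rules were set after the data were seen, as was the one that left cluster 17 unnamed: its neuron markers gave way at resolution 2, to 21 neuron-like, 106 interstitial cell of Cajal-like and 113 pericyte-like nuclei. Cluster 23 stayed unnamed because Ebf1, a B cell marker, was among its leading genes. Some named clusters had immune or stress genes in their top 10: Ptgs2 in fibroblast-like cluster 16, Slfn4 in goblet-like cluster 4, Saa1 in colonocyte-like cluster 8, and Reg3b with Reg3g in colonocyte-like cluster 3.

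Counts were summed per library and class. Intervals are exact Poisson (levels) or conditional binomial (ratios) at 95%. For a fold against the floor a count of 0 was set to 3 counts, and that fold is not an interval limit. Median log2 ratios have 0.5 added to each count. The ratio code was tested on simulated data. The text names the 8 members, Pink1, overlapping genes, listed genes on which a result turns and the 3 genes most like each member with at least 200 counts (log2 of CPM plus 5, genes with at least 500 counts). Genes matched GENCODE M21 for 99.6% of IDs. Protein sequences were not analysed here.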

Additional observations from a re-analysis of the deposited data

How the results depend on the processing

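Alternatives were other filters, doublet rules, resolutions, separate clustering, scaling by the median ratio, subtraction of free RNA, leaving out the nucleus with the most UMIs of a gene, equal class weights and nuclei thinned to 500 UMIs. The 527 comparisons also took in list counts, list medians and levels, and only part of them were of ratios whose interval excluded 1. None of those ratios crossed 1. Ratios whose intervals include 1 did: Nfil3 in colonocyte-like (0.963, Scrublet's own threshold) and crypt-base and proliferating-like nuclei (0.949, stricter filter), Hlf over all nuclei (0.802 to 0.988 in 5 settings) and in fibroblast-like nuclei (1.11), and Rora in smooth muscle-like nuclei (0.985 and 0.99), as did Bhlhe41 below. Among the values over all nuclei, 153 stayed within the counting interval or within 1.5 times the count, and 7 did not. Tef moved from 0.378 to 0.336 with the stricter filter and 0.455 with thinning, Ciart to 0.696 and Bhlhe41 to 1.51 with thinning, and Rora to 1.11 with equal class weights. The number of core clock genes at least 1.5-fold higher was 1 in place of 2 with the looser filter and with thinning. The number of members at least 1.5-fold lower was 2 with thinning and the number higher 3. Among the class values 357 stayed and 10 did not. These include the Bhlhe40 ratio in goblet-like nuclei (1.24 with thinning) and its wild-type level there (271 CPM with the stricter filter, 439 with thinning). The wild-type Dbp level in colonocyte-like nuclei (31.2 CPM at resolution 2) and the Nfil3 ratio in fibroblast-like nuclei (1.42 with thinning) are also among them. Thinning leaves fewer counts by construction, and other causes were not tested. Scaling by the median ratio moved the log2 of the knockout total by -0.05 to 0.06, and log2 ratios by as much the opposite way. No paired analysis was possible because each genotype is 1 library. Depth limits Dbp, Hlf, Nfil3, Ciart and Bhlhe41, which had under 200 counts each in all, so that few classes hold enough counts to show a difference for them.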
